A study of Mus musculus with 3 samples.

Results

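Notch1 and Notch2, a pair of cell surface receptors, and Hes1 and Nrarp, a pair of genes that active Notch signalling is known to switch on, were followed in mouse blood stem and progenitor cells. The 4 genes were taken by symbol from the 31053 genes of the count matrix, and all 4 were found. Each was described over the 3470 kept cells, by surface phenotype, by RNA cluster and by genotype. The rule names genes and uses no measured value, but it was written with earlier results of these data known.

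Notch receptors are cut in steps after they bind a Delta or Jagged ligand on a neighbouring cell. The last cut, by gamma-secretase, frees the intracellular part, which enters the nucleus and joins the DNA-binding protein RBPJ and a Mastermind coactivator to switch on target genes. In the blood system Notch1 is known above all for commitment to the T cell lineage in the thymus, and Notch2 for marginal zone B cells and for stem cell recovery after injury. Hes1 encodes a transcriptional repressor, and Nrarp encodes an ankyrin repeat protein that limits the activity of the nuclear complex.

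The study asked about the role of Helios, the product of Ikzf2 and a zinc finger protein related to Ikaros, in these cells. Lineage-negative, Sca1-positive, Kit-positive (LSK) bone marrow cells came from 2 mice labelled Helios-deficient and 2 mice labelled wild type, and the labels give the genotype behind each hashtag. Each mouse carried its own hashtag antibody, cells carried tagged antibodies to CD41, CD48, CD150 and Flt3 (CD135), and all 4 mice shared 1 droplet run made with a 3 prime chemistry. The labels name neither the Helios allele nor the age, sex or treatment of the mice, and no treatment group was described.

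Hashtags assigned 557 and 824 kept cells to the deficient pair of mice and 1175 and 914 to the wild-type pair, with total UMIs (counted RNA molecules) of 5729987, 8424677, 10317599 and 8364109. No barcode was kept under more than 1 mouse. Levels are given as CPM, the UMI count scaled to the total of the library. Ikzf2 itself read 73.6 and 82.7 CPM in the deficient pair and 70.6 and 67.7 CPM in the wild-type pair (log2 fold change 0.18, edgeR adjusted p = 0.46). A 3 prime count can miss an internal deletion, so this level checks neither the deletion nor the hashtags. Of the defining LSK genes, Ly6a (Sca1) was found in 58.9% of cells and Kit in 53.0%. Among markers of mature cells, Cd3e, Cd8a, Pax5 and Cdh5 had 0 UMIs, which allows up to 0.0914 CPM, while the other members of their lists were found. The summed T and NK cell list (9 genes) was at 254 to 308 CPM per mouse and the mature B cell list (6 genes) at 40.3 to 54.9 CPM. The endothelial and stromal list (7 genes) was at 57.7 to 70.8 CPM and the macrophage and monocyte list at 19.7 to 40.1 CPM. Erythroblast genes summed to 48.7 to 133 CPM and neutrophil genes to 2.97 to 16.1 CPM. Mice are the replicates throughout (n = 2 per genotype). The labels name separate mice, and no second run of any mouse was analysed.

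All 4 genes were sparse. Notch1 (ENSMUSG00000026923, chr2:26457902-26503822) gave 604 UMIs and was found in 494 cells (14.2%). Notch2 (ENSMUSG00000027878, chr3:98013538-98150367) gave 1059 UMIs in 727 cells (21.0%). Hes1 (ENSMUSG00000022528, chr16:30065357-30067796) gave 115 UMIs in 82 cells (2.36%), and Nrarp (ENSMUSG00000078202, chr2:25180758-25183339) gave 177 UMIs in 160 cells (4.61%). Gene spans are those of RefSeq on GRCm38.p6. Most cells with a receptor UMI held a single one, 407 of 494 for Notch1 and 509 of 727 for Notch2, so a cell without a UMI cannot be read as a cell without the RNA. The kept cells include no type known to lack these genes, and the share of cells that free RNA alone would give was not measured.

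The promoter sequences show where a match to the RBPJ motif could lie in the receptor and target genes. They are the 250 bases before each transcription start, from RefSeq (GRCm38.p6), and 3 of the 4 genes matched (not Hes1). They run 5′ to 3′ on the gene's strand. Capitals mark GGGAA, the core of the RBPJ motif. Notch1 and Nrarp are shown because their RNA differed between surface gates, and Notch2 because it alone holds the core.
Notch1, chr2:26503823-26504072, minus strand: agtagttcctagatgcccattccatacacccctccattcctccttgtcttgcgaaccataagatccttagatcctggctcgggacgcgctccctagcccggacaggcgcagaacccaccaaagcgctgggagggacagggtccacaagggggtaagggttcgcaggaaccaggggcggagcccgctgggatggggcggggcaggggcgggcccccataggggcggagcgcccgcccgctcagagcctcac
Notch2, chr3:98013288-98013537, plus strand: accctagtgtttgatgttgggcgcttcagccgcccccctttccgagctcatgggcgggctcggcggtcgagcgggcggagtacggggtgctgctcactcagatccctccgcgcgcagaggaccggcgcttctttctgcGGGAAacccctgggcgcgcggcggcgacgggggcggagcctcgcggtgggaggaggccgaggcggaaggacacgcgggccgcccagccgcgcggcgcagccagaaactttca
Nrarp, chr2:25180508-25180757, plus strand: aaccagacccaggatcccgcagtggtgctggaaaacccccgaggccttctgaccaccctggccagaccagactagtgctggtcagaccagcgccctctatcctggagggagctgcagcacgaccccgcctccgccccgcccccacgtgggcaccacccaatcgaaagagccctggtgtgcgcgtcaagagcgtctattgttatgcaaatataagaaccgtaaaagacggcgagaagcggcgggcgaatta
The longer form TGGGAA, searched on both strands, had 0 matches in the 3 sequences. It occurs in 21.6% of the 32851 RefSeq mouse promoters of this length. The core GGGAA, which TGGGAA contains, occurred once, in Notch2 at position -112 from the start, against 56.2% of all promoters with at least 1 match. These are letter matches in 1 window and no measure of binding.

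Between genotypes, none of the 4 genes passed the test in edgeR, and DESeq2 called none of them either. Over all genes the same fit called 92 of 11592 (0.794%) at an adjusted p under 0.05. Notch1 read 15.0 and 16.6 CPM in the deficient pair and 20.5 and 19.8 CPM in the wild-type pair. Both Helios-deficient mice were thus below both wild-type mice, an order that 21.3% of all tested genes showed. The log2 fold change of Notch1 was −0.34 (SE 0.13, 95% interval −0.62 to −0.067), with an edgeR p of 0.0177 and an adjusted p of 0.344. Unadjusted, 10.4% of all tested genes lay under 0.05.

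For Notch2 the deficient pair read 30.9 and 30.1 CPM, and the wild-type pair 32.5 and 35.0 CPM. The pairs did not overlap, but the gap between their nearest mice was smaller than the gap between the wild-type mice. The fitted difference on the log2 scale was −0.14 (SE 0.11, edgeR adjusted p = 0.709).

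The targets Nrarp and Hes1 had positive values, short of the threshold. Of all 8 tested targets of the pathway list 2 were positive and 6 negative, with a median of −0.14. Nrarp read 6.81 and 5.34 CPM in the deficient pair and 4.94 and 5.02 CPM in the wild-type pair, higher in both Helios-deficient mice, as were 19.9% of all tested genes. Its log2 fold change was 0.26 (SE 0.24, edgeR adjusted p = 0.777). Hes1 read 3.14 and 4.15 CPM in the deficient pair and 3.88 and 2.63 CPM in the wild-type pair, and the pairs overlapped (log2 fold change 0.17, SE 0.30, edgeR adjusted p = 0.905). The intervals were wide, from −0.46 to 0.81 for Hes1 and from −0.23 to 0.76 for Nrarp. Differences of either sign within those bounds were compatible with the data.

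**Figure D1:**
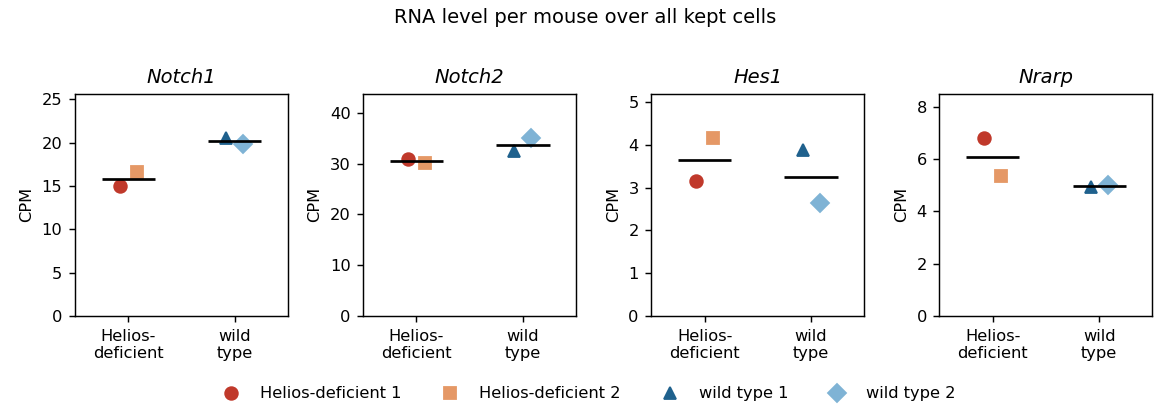
RNA level in CPM (vertical axes, from 0) of Notch1, Notch2, Hes1 and Nrarp in the 2 Helios-deficient and 2 wild-type mice. Points are mice and lines are genotype means; Notch1 lies between 15.0 and 20.5 CPM with the Helios-deficient mice lower, and the Hes1 pairs overlap.

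To compare cells by phenotype without using RNA, the cells were divided by their surface tags. CD48 was cut at 113 tag UMIs, where a mixture of 2 normal curves crossed. CD150 (78 tag UMIs) and CD135 (38 tag UMIs) gave no crossing and were cut at their medians. The 5 gates were CD48-low CD150-high (the phenotype in which stem cells are concentrated), CD48-low CD150-low, CD48-high CD150-high, and CD48-high CD150-low cells with low or high CD135. RNA that took no part in the cut differed along with the tags. Cd48 RNA averaged 35.9 CPM in the CD48-low CD150-high gate against 282 CPM in the CD135-high gate, Slamf1 (CD150) RNA 16.8 against 1.73 CPM, and Flt3 RNA 56.0 against 187 CPM. Mecom, a stem cell transcription factor, averaged 71.0 against 23.4 CPM. The gates between were less apart. The CD48-low CD150-low gate averaged 67.3 CPM of Mecom and 3.29 CPM of Slamf1, and the CD48-high CD150-high gate 25.9 and 4.88 CPM.

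Notch1 RNA was lowest in the CD48-low CD150-high gate and highest in the CD48-high CD150-low CD135-high gate. In the first it stood at 1.64, 7.39, 11.3 and 11.9 CPM in Helios-deficient mice 1 and 2 and wild-type mice 1 and 2, and in the last at 31.0, 22.5, 33.3 and 32.9 CPM in the same order. Every mouse was higher in the CD135-high gate, and the lowest value there lay above the highest value of the CD48-low CD150-high gate. The difference over the 5 gates passed (edgeR F test with mouse as a block, adjusted p = 7.8e-10), as it did for 2912 of 9467 tested genes (30.8%). Of those 2912 genes, 1608 were higher and 1304 lower in the CD135-high than in the CD48-low CD150-high gate. With library totals in place of TMM scaling the split was 1293 higher and 1693 lower, and Notch1 still differed by 1.83 on the log2 scale. The log2 fold change of Notch1 between these gates was 1.89 (SE 0.22, 95% interval 1.44 to 2.33, edgeR adjusted p = 5.5e-11), among 11.3% of tested genes called higher in that pair.

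The gates between had middle values. CD48-low CD150-low cells held 17.1, 17.2, 16.3 and 14.8 CPM of Notch1, a narrow range in which all 4 mice exceeded their own CD48-low CD150-high cells. The step from the CD48-low CD150-high gate was 0.91 on the log2 scale (SE 0.24, edgeR adjusted p = 0.0071), in a pair where 2.97% of tested genes were called higher. CD48-high CD150-high cells held 16.1, 21.1, 24.5 and 19.7 CPM, and CD48-high CD150-low CD135-low cells 11.4, 17.3, 19.9 and 20.5 CPM. Both were above the CD48-low CD150-high gate, by 1.33 (SE 0.21) and 1.09 (SE 0.25), and the larger edgeR adjusted p of the 2 was 0.000638. In those pairs 10.9% and 8.98% of tested genes were called higher. Both overlapped the CD48-low CD150-low values, and neither step from that gate passed (edgeR adjusted p = 0.0789 and 0.649, with 14.1% and 10.8% of genes called higher). CD135-high cells were above CD48-low CD150-low cells by 0.98 (SE 0.19, edgeR adjusted p = 4.1e-05, 13.7% of genes called higher). They were not separated past the threshold from the CD48-high CD150-high cells (0.56, SE 0.17, edgeR adjusted p = 0.109) or from the CD135-low cells (0.80, SE 0.20, edgeR adjusted p = 0.145). In those last 2 comparisons only 0.37% and 0.0106% of all tested genes were called higher.

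The Notch1 levels thus formed an order in which the end gates were separated and the 3 between them were not. Levels by single tags were described too. The cells of every mouse were put into 4 equal groups by each tag. In the group with the most CD48 tag the Notch1 level averaged 23.0 CPM, against 9.68 CPM in the group with the least, and for CD135 it averaged 23.3 against 13.2 CPM. The top group was higher in 4 of 4 mice for both tags. For CD150 the averages were 15.4 CPM in the top and 21.8 CPM in the bottom group, and for CD41 they were 14.7 and 19.7 CPM. The top group was lower in all 4 mice for both of these tags.

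Depth and marker lists moved with these gates. Median UMIs per cell were 6291 to 7567 in the CD48-low and 8778 to 13333 in the CD48-high gates. After every cell was thinned to 3000 UMIs, with 17 cells too shallow to use, Notch1 was found in 0.714% to 3.604% of the CD48-low CD150-high cells of a mouse and in 7.41% to 12.1% of the CD135-high cells. The unthinned shares were 1.42% to 8.39% and 21.0% to 29.9%, and the end gates did not overlap at either. At 2000 UMIs they did overlap, at 1.35% to 2.59% and 2.47% to 7.20%, and the mean of the CD135-high gate (3.92%) lay below those of the 3 gates between (4.29% to 4.58%). The summed T and NK cell list was at 119.8 to 137 CPM per mouse in the CD48-low CD150-high gate and at 302.9 to 345.9 CPM in the CD135-high gate, while Cd3e and Cd8a were at 0. Without the 365 cells that held at least 2 UMIs of 16 defining mature cell genes, the Notch1 difference was 1.84 (edgeR adjusted p = 3.1e-09). Fewer cells with the RNA and less RNA per cell cannot be told apart in these sums.

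**Figure D2:**
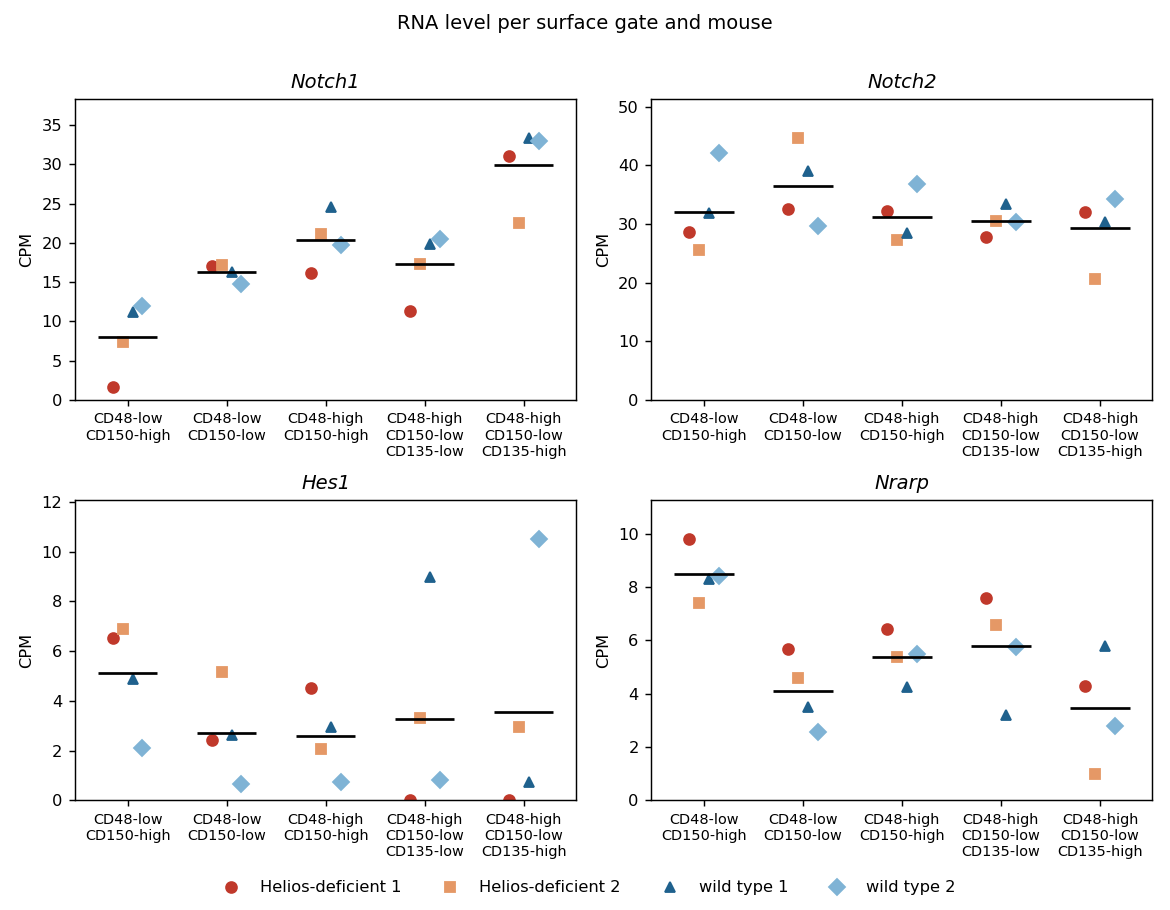
RNA level in CPM (vertical axes, from 0) of the 4 genes in the 5 surface gates (horizontal axes), one point per mouse with the mean of 4 mice as a line. Notch1 averages 8.05 CPM in the CD48-low CD150-high gate and 29.9 CPM in the CD135-high gate, Nrarp 8.48 and 3.46 CPM, and Notch2 lies near 30 CPM in all 5 gates.

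Notch2 showed no such order over the gates. Its mean level was 32.0 CPM in the CD48-low CD150-high gate, 36.5 CPM in the CD48-low CD150-low gate, and then 31.2, 30.5 and 29.4 CPM across the CD48-high gates. The ranges over mice overlapped in every pair of gates. The highest single value, 44.6 CPM, was in the CD48-low CD150-low cells of Helios-deficient mouse 2, and the lowest, 20.6 CPM, in the CD135-high cells of the same mouse. By single tags Notch2 averaged 29.2 CPM in the group with the most CD48 tag and 38.3 CPM in the group with the least. The top CD48 group was higher in 0 of 4 mice, though in wild-type mouse 2 the values were 34.9 and 35.0 CPM. For CD150, CD135 and CD41 the top group was higher in 2 of 4 mice each. The F test over gates gave an edgeR adjusted p of 0.633. Between the end gates the difference was −0.049 on the log2 scale, with a 95% interval from −0.38 to 0.28 that leaves out a change of the size of that of Notch1.

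Nrarp, the feedback inhibitor, differed in the other direction from Notch1 between the end gates. It stood at 9.82, 7.39, 8.32 and 8.41 CPM in the CD48-low CD150-high gate and at 4.28, 0.98, 5.79 and 2.80 CPM in the CD135-high gate. No mouse's CD135-high value reached the lowest CD48-low CD150-high value. The log2 fold change was −1.16 (SE 0.39, edgeR adjusted p = 0.0214), and 9.99% of tested genes were called lower in that pair. CD48-low CD150-low cells, at 5.69, 4.57, 3.51 and 2.57 CPM, were also lower (−1.08, SE 0.34, edgeR adjusted p = 0.0339), in a pair where 4.68% of genes were called lower. The 2 remaining gates, at 3.21 to 7.59 CPM, were not separated from any other. These sums rest on 56 UMIs in the CD48-low CD150-high gate and on 17 in the CD135-high gate. The F test over gates passed narrowly (edgeR adjusted p = 0.0417). It did not pass when any one of the 4 mice was left out (0.0643 to 0.248), with DESeq2 (0.374), without the count filter (0.0557) or with the tags cut at medians within each mouse (0.0584), and over all settings its adjusted p ran from 0.0158 to 0.374.

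By single tags the Nrarp order was opposite to that of Notch1 for CD48, CD150 and CD41. It averaged 8.71 CPM in the top and 3.99 CPM in the bottom group of CD150, and 7.36 against 3.68 CPM for CD41, the integrin chain of the megakaryocyte lineage. In both cases the top group was higher in 4 of 4 mice. For CD48 the averages were 4.54 CPM in the top and 8.79 CPM in the bottom group, and 0 of 4 mice had the top group higher. Thinned to 3000 UMIs, Nrarp was found in 1.43% to 3.31% of CD48-low CD150-high and in 0% to 1.60% of CD135-high cells of a mouse. These shares rest on 2, 4, 9 and 4 cells and on 0, 0, 2 and 2 cells of the 4 mice, and their ranges overlapped.

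Hes1 was too sparse to pass the count filter of the gate fit. Its levels were 6.54, 6.90, 4.89 and 2.10 CPM in the CD48-low CD150-high gate and 0, 2.94, 0.724 and 10.5 CPM in the CD135-high gate. The 0 in Helios-deficient mouse 1 allows up to 3.21 CPM there. Values of the mice overlapped between all gates, and a fit without the filter gave an edgeR adjusted p of 0.559.

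The high Hes1 values of the CD48-high gates came from single cells. Of all 115 Hes1 UMIs, 30 (26.1%) lay in 4 cells with 4, 4, 8 and 14 UMIs, and every other cell held at most 2. These cells were singled out after the values were seen. One belonged to Helios-deficient mouse 2, 2 to wild-type mouse 1 and 1 to wild-type mouse 2, where it held 14 of the 22 Hes1 UMIs (63.6%). Outside them Hes1 stood at 3.14, 3.68, 2.72 and 0.957 CPM in the 4 mice. The log2 fold change between genotypes was then 0.85 in place of 0.17, and still did not pass (edgeR adjusted p = 0.486).

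Genes of the T and innate lymphoid lineages, chosen after the cells were seen, were found in some of the 4. Trbc1, a T cell receptor constant segment, had 47 UMIs in 3 of the 4 cells and was found in 0.346% of the others. Tcf7, an early T lineage factor and Notch target, had 13 UMIs in 3 of them, and the lymphoid regulator Id2 had 41 UMIs in 2. Cd3e, Cd3d and Cd3g had 0 UMIs in the 4 cells. They were found in only 0%, 0.144% and 0.0577% of the others, so these counts of 0 say little. Ly6a, found in 59.0% of the others, also had 0 UMIs in the 4 cells. Without them Hes1 was at 4.62 CPM in the CD48-low CD150-high gate, 2.79, 2.36 and 1.47 CPM in the next 3 gates and 1.05 CPM in the CD135-high gate, pooled over mice. The unfiltered fit without these cells gave −1.91 on the log2 scale between the end gates (edgeR adjusted p = 0.0846).

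**Figure D3:**
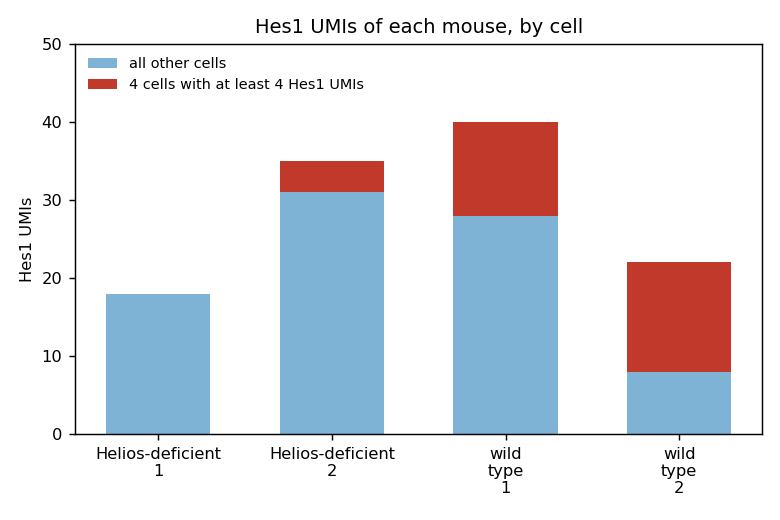
Hes1 UMIs (vertical axis, from 0) of each mouse, divided into the 4 cells with at least 4 Hes1 UMIs (red) and all other cells (blue). The 4 cells hold 14 of 22 UMIs in wild-type mouse 2, 12 of 40 in wild-type mouse 1, 4 of 35 in Helios-deficient mouse 2 and 0 of 18 in Helios-deficient mouse 1.

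Genotype was then compared within each gate, at matched surface phenotype. None of the tests made on the 4 genes passed in any gate, while 1.04% of all genes did in the CD48-low CD150-high gate, 0.301% in CD48-low CD150-low, 0.945% in CD48-high CD150-high, 0.168% in CD135-low and 0.18% in CD135-high cells. Before adjustment 2 of these edgeR tests lay under 0.05, those of Notch1 and Notch2 in CD48-low CD150-high cells, where Notch2 differed by −0.44 (edgeR adjusted p = 0.454). Of the 9384 genes tested in that gate, 964 had an unadjusted edgeR p under 0.05. DESeq2 called none in the other gates and gave no adjusted p for the 4 genes in that gate. The largest difference of a receptor was that of Notch1 in CD48-low CD150-high cells. There 2 and 15 UMIs in the Helios-deficient mice (1.64 and 7.39 CPM) stood against 23 and 17 UMIs in the wild-type mice (11.3 and 11.9 CPM). The log2 fold change was −1.15 (SE 0.43, edgeR adjusted p = 0.245). Leaving out the first Helios-deficient mouse gave −0.64 and leaving out the second gave −2.78, so its size rested on the mouse with 2 UMIs. In the other gates the Notch1 value lay between −0.43 and 0.13, with edgeR adjusted p of 0.86 or more. The test of whether the genotype difference itself varied over gates gave an edgeR adjusted p of 0.979 for Notch1 and for Notch2 and 0.987 for Nrarp, against 0.148% of tested genes called. When each mouse gave the same number of cells to each gate, 557 per mouse in all, the Notch1 genotype difference over all cells was −0.36 (edgeR adjusted p = 0.477).

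Clusters built from RNA, with the Notch pathway genes left out of the clustering, gave a finer description. Since the clusters come from the RNA of the same cells, their levels carry no test, and clusters are called by number and leading genes. The 9 clusters with at least 50 cells held 118 to 683 cells. Notch1 was highest in cluster 8 (189 cells), whose leading genes mix the granule protease gene Elane and the myeloid gene F13a1 with the lymphoid genes Il7r and Dntt. It was at 43.8, 40.6, 68.6 and 57.4 CPM there and was found in 45.5% of cells. Cluster 4 (466 cells), led by Gm32554, Wfdc18 and Wfdc17 and holding 7 of the 12 lymphoid-primed markers, came next at 33.7, 53.6, 39.8 and 48.2 CPM. In cluster 8 Elane was found in 15.3% and Dntt in 85.7% of cells. Finer clustering, at a resolution of 1, parted these genes. There a cluster led by Elane and F13a1 (124 cells) had 21.1 CPM of Notch1, pooled over mice. One led by Cox6a2 and Il7r (110 cells) had 71.6 CPM, and one led by Ccr9 (84 cells) had 73.0 CPM.

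Cluster 7 (236 cells) stood at the other end for Notch1. It was led by the erythroid gene Car1 and Tspo2, with the platelet factor gene Pf4 among its 10 leading genes, and Notch1 was at 1.73, 2.11, 3.43 and 0 CPM there, from 5 UMIs in all. Nrarp was highest in the same cluster, at 8.63, 11.6, 10.3 and 8.04 CPM, and lowest in cluster 8, with 4 UMIs in all. At a resolution of 1 a cluster led by Pf4 (97 cells) had 14.3 CPM of Nrarp, pooled over mice. One led by Treml1 (160 cells) had 9.69 CPM, and one led by Car1 (42 cells) had 3.13 CPM, from 2 UMIs. Cluster 2 (536 cells), led by Igkc, Ighm and Cd74 and holding 11 of the 17 stem cell markers, had 11.6 CPM of Notch1 and 6.23 CPM of Nrarp. At 3000 UMIs per cell Notch1 was found in 12.0%, 11.1%, 17.7% and 33.3% of the cluster 8 cells of the 4 mice and in 7.32%, 14.7%, 9.89% and 13.2% of those of cluster 4. In cluster 7 it was found in 2 of 236 cells, both from Helios-deficient mouse 2. Nrarp at this depth was found in 2.54% of cluster 7 cells (6 cells) and in 3.39% of cluster 9 cells (4 cells), pooled over mice.

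Cluster sizes differed between mice, both where Notch1 was high and where it was low. Cluster 4 held 7.36% and 9.10% of the cells of the Helios-deficient mice and 15.5% and 18.4% of those of the wild-type mice. Cluster 8 held 4.49% and 7.65% against 5.28% and 4.27%, and these pairs overlapped. Cluster 7, lowest in Notch1, held 8.08% and 8.98% against 4.68% and 6.78%. Cluster 2 held 17.4% and 18.7% against 14.2% and 12.9%. The size pairs of clusters 1 and 5 did not overlap either. Within cluster 4 the Notch1 levels of the pairs overlapped. Within cluster 8 the Helios-deficient mice (43.8 and 40.6 CPM, 25 and 63 cells) were below the wild-type mice (68.6 and 57.4 CPM, 62 and 39 cells). Cluster 5 had the same order (10.7 and 11.6 against 17.0 and 15.7 CPM), and the pairs overlapped in every other cluster with at least 50 cells. Over all kept cells 21.3% of tested genes showed this order, and the share within a cluster was not measured. The part of the cluster sizes in the genotype values of Notch1 was not tested.

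Notch2, without a called difference across the surface gates, was concentrated in 1 cluster. Cluster 6 (263 cells, 7.58% of all) held 334 of the 1059 Notch2 UMIs (31.5%). Its level was 129, 170, 140 and 182 CPM in the 4 mice, against 23.6 CPM in all cells outside it. Notch2 was found in 68.1% of its cells and in 17.1% of the others. Notch2 also led the ranking of its genes although it had no part in the clustering, followed by the zinc transporter gene Slc39a1, D17H6S53E, the histone demethylase gene Kdm6b and Ric1. None of the stem, lineage or mature cell lists had a member enriched there.

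Depth in cluster 6 was like that of other clusters. Its median of 7314 UMIs per cell lay within the range of the other clusters with at least 50 cells (6107 to 15007), and its median mitochondrial share was 2.58%. Thinned to 3000 UMIs, Notch2 was found in 34.7%, 44.0%, 32.6% and 53.5% of its cells in the 4 mice (40.9% of all), and in 4.24% to 9.25% of the cells of the other 8 clusters, pooled over mice. All 4 mice held the cluster, at 8.98%, 6.31%, 7.57% and 7.88% of their cells, and it spread over all 5 gates, from 5.17% of CD48-low CD150-high to 10.8% of CD48-low CD150-low cells. Clustering with all variable genes gave a cluster at 161 CPM, and a resolution of 1 gave one at 151 CPM. Notch1 in cluster 6 was ordinary, at 13.9 CPM, and without the cluster the genotype difference of Notch2 was −0.077 in place of −0.14.

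**Figure D4:**
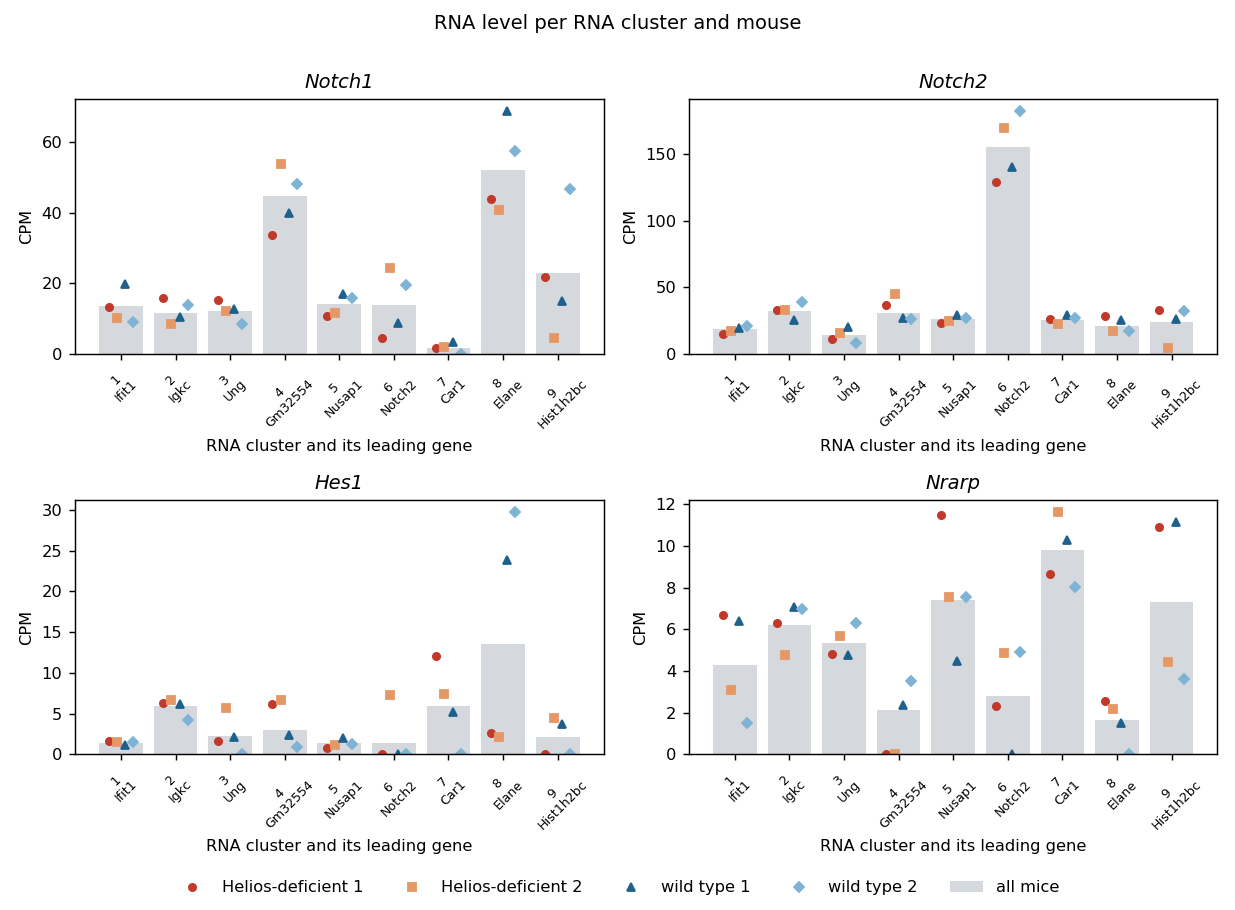
RNA level in CPM (vertical axes, from 0) of the 4 genes in the 9 RNA clusters with at least 50 cells, each named by number and leading gene. Bars are sums over all mice and points are mice; Notch2 reaches 155 CPM in cluster 6, and Notch1 reaches 52.0 CPM in cluster 8 and 44.6 CPM in cluster 4.

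Detection of 2 of the genes in 1 cell was set against the product of their shares for all 6 pairs. Notch1 and Notch2 were found together in 112 cells, against 103 from the product of their shares. Notch1 and Nrarp were together in 24 cells against 22.8, and Hes1 and Nrarp in 5 against 3.78. Notch2 and Nrarp were together in 40 cells against 33.5, Notch1 and Hes1 in 11 against 11.7, and Notch2 and Hes1 in 16 against 17.2. Deeper cells raise all these counts together, and with so few UMIs per cell they describe detection only.

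The rest of the pathway was read from a list of 62 genes, grouped by role, of which all were in the matrix. The other receptors were near the limit of detection, with 10 UMIs of Notch3 and 58 of Notch4 (Notch4 genotype difference −0.12, edgeR adjusted p = 0.955). Of the ligands, Dll1, Dll3, Dll4 and Jag1 gave 2, 1, 6 and 4 UMIs. Jag2 gave 97 and the atypical ligand Dlk1 gave 91. Jag2 was at 2.93 ± 0.64 CPM and Dlk1 at 3.02 ± 1.45 CPM (mean ± SD, n = 4 mice).

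No list gene passed between genotypes among the 50 that were tested. In that list 19 log2 values were positive and 31 negative, with a median of −0.048 against −0.00029 over all tested genes. Unadjusted edgeR p-values lay under 0.05 for 5 of them, against 10.4% of all genes. They were Notch1, Lfng (a sugar transferase that modifies Notch, −0.39, edgeR adjusted p = 0.137), the HES family gene Hes6 (−0.17, 0.481), and the T lineage genes Tcf7 (−1.47, 0.363) and Bcl11b (−3.12, 0.0879). Tcf7 and Bcl11b rested on few cells. Of the 27 Bcl11b UMIs 7 lay in 1 of the 4 cells rich in Hes1, and the other 20 in 3 cells.

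Between gates 13 of the 39 list genes that passed the filter were called, a share near the 30.8% over all tested genes. From the CD48-low CD150-high to the CD135-high gate 6 of these had positive and 7 negative values. In that pair itself all 6 passed as higher and 5 of the 7 as lower (not Maml2 or Mfng). The median over the 39 was −0.12, against 0.0013 over all tested genes. Among the positive were Notch1, the coactivator gene Maml3 (1.17, SE 0.23, edgeR adjusted p over gates 4.6e-05), the corepressor gene Tle3 (1.06), the ubiquitin ligase gene Itch (0.53) and Hes6 (0.52). Maml3 averaged 10.1 CPM in the first and 21.2 CPM in the last of these gates, and Tle3 10.6 and 20.3 CPM. Among the negative were Nrarp, the T cell and stem cell transcription factor gene Gata3 (−0.96), the gamma-secretase gene Psen2 (−0.81), Maml2 (−0.73) and the receptor protease gene Adam10 (−0.57). For Maml2 the pair's edgeR adjusted p was 0.11.

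By role, the 9 tested receptor processing genes gave 2 calls, both lower, and the 6 tested genes of the nuclear complex gave 2, Maml3 and Maml2, in opposite directions. Rbpj, the DNA-binding partner itself, was not called over the gates (−0.087, SE 0.18, edgeR adjusted p = 0.944). Of the 14 targets on the list only 4 passed the gate filter, and Hes1 was not among them. All 4 were called, against 30.8% of all tested genes, with 2 higher and 2 lower, so the called targets had both directions. The call of Nrarp did not hold when any 1 mouse was left out. Hey1, Hey2, Dtx1 and Il2ra had 0 UMIs in all cells.

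**Figure D5:**
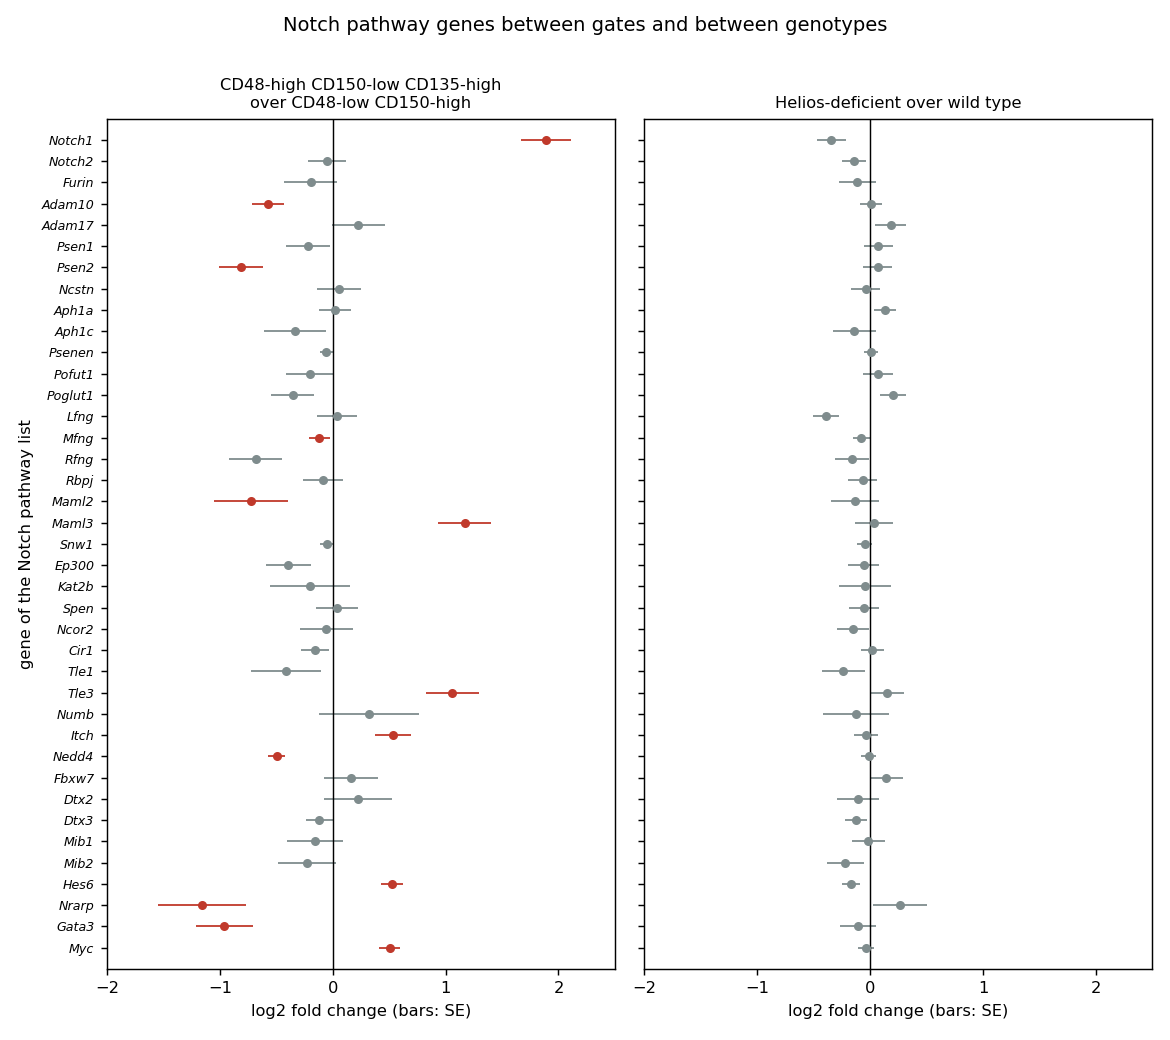
Log2 fold changes (horizontal axes) of the 39 genes of the Notch pathway list that passed the gate filter, between the end gates (left) and between genotypes (right), with SE as bars. Red points passed an adjusted p of 0.05 in the F test over gates or in the genotype test; 13 did on the left and 0 on the right.

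The genes whose level followed each member most closely were ranked by Pearson's r of log2(CPM + 1) over the 20 sums of a mouse and a gate, among 9467 genes. Sums of 1 mouse share its cells, and gates share a depth pattern, so r is a description. For Notch1 the leading genes were St8sia4 (r = 0.90), Tnfaip8l2 (0.89), Dock10 (0.88), the cytokine receptor gene Flt3 (0.87) and Ramp1 (0.86). For Nrarp they were Fgf3 (0.85), Syngr1, Ndufv3, Gm17259 and Stau2 (0.82). The values were lower for Notch2, where Fundc1, Fam102a, Thap3, Cwf19l2 and G430095P16Rik reached 0.72 to 0.75. For Hes1, Lrp10, Bap1, Dync2h1, Whamm and Eif2s3x reached 0.69 to 0.75. Hes1 did not pass the count filter, and its sums held 0 to 15 UMIs. The largest, 14 and 15 UMIs, came mostly from cells rich in Hes1, so its ranking carries little weight.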

How the data were processed

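RNA, antibody tags and hashtags were read from 1 pool of 4 mice loaded at 2500 cells per mouse. The deposited matrix holds raw UMI counts, per the file headers (software 3.0.2). Cell Ranger (version not named), Seurat 3.0.0 and build mm10 are given by the submitters' processing notes. The deposited hashtag calls gave the mouse of each barcode (3842 single, 231 doublets, 35 without a hashtag), and the list of 3470 kept cells is the authors'. The filter behind it is not given in the sources used here. No doublet caller was run.

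Counts were summed per mouse, or per mouse and gate, and tested with edgeR 4.0.16 in R 4.3.3 (TMM, filterByExpr, robust quasi-likelihood fit, Benjamini-Hochberg adjustment over all genes, threshold 0.05). Gate fits held mouse as a block. DESeq2 1.42.0 was an alternative. On simulated counts the genotype fit (11459 genes) recovered 84 of 100 true changes of 1.5-fold and 100 of 100 of 2-fold. The gate fit (9281 genes) recovered 66 and 99 of 100. True changes were placed only in genes with a higher mean level than Hes1 (3.45 CPM) and Nrarp (5.53 CPM), with no upper limit. Simulated counts took their spread from the trend over genes and not from each gene. These recovery rates therefore do not apply to Hes1 or Nrarp, and no rate was measured at the levels of Notch1 or Notch2. Clusters came from Pearson residuals of 1500 genes and Leiden at a resolution of 0.5 (scanpy 1.11.5, leidenalg 0.10.2). Exact intervals on shares and limits from a count of 0 cover counting error only. The genes, pathway list and markers were chosen with earlier results of these data known. Named genes are the 4 members, Ikzf2, list receptors and ligands, up to 5 rises and 5 falls of the list between gates, and the 5 genes most like each member. Lfng, Tcf7, Bcl11b, Rbpj, the genes of the cells rich in Hes1 and the leading genes of clusters fall outside that rule and were named after their values were seen.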

Additional observations from a re-analysis of the deposited data

Results flagged for a closer look

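Barcodes that the report leaves out also held UMIs of these genes, with no control sample to set them against. Among the 231 hashtag doublets (median 12133 UMIs), Notch1 was found in 21.2%, Notch2 in 25.5%, Hes1 in 1.73% and Nrarp in 6.06%, each above the 1.30% that a count of 0 allows. Among the 35 barcodes without a hashtag (median 6056 UMIs), Notch1 was found in 14.3% and Notch2 in 20%, above a limit of 8.57%, and Hes1 and Nrarp were under it. No mouse lay far from the other 3 in any of the 20 gate values checked.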

How the results depend on the processing

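The Notch1 difference between the end gates kept its direction and passed in every setting that left it past the count filter, from 1.63 to 2.15 on the log2 scale; without mature-list cells it was filtered out. No genotype test of the 4 genes passed in any setting. No paired analysis was possible because the hashtags share no replicate number between genotypes; mouse was a block in the gate fits.

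Counts of genes past 0.05 moved, and the cause was not tested. Between genotypes the 92 calls became 33 with DESeq2, 296 without the filter, 57 without the robust option, 144 with all single-mouse barcodes and 50 with equal cells of each gate, and 126 to 565 without 1 mouse. The 2912 gate calls became 1784 with DESeq2, 296 without cells with mature-list UMIs (1002 cells left) and 2267 to 2466 without 1 mouse. The 14 interaction calls became 46 without the filter and 16 to 35 without 1 mouse. Within gates, DESeq2 called 16, 8, 20, 4 and 6 genes in the order of the gates, and leaving out 1 mouse gave 47 to 115, 22 to 60, 55 to 87, 11 to 113 and 14 to 87. Without the filter the CD135-low gate gave 24 and the CD135-high gate 36.

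The thinned Notch1 share differed between the end gates by 2.12 points at 2000 UMIs, 10.4 at 5000 and 18.0 unthinned.

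Values that changed sign were all short of the threshold. The Hes1 genotype value became −0.081 with equal gate cells and ran from −0.068 to 0.49 without 1 mouse. Its gate value ran from −2.19 to 0.15 and its interaction from −1.89 to 0.57 without 1 mouse. The Notch2 gate value became 0.49 without mature-list cells and 0.27 with CD150 and CD135 cut at the 80th percentile, and ran from −0.12 to 0.017 without 1 mouse. Its interaction ran from −0.15 to 0.35, and within gates it ran from −0.11 to 0.40 in CD48-low CD150-low and from −0.31 to 0.051 in CD48-high CD150-high cells. Nrarp in CD48-low CD150-high cells became 0.014 with DESeq2 and ran from −0.18 to 0.20.

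Settings added after seeing the data were the 16-gene cell filter, the 80th percentile cut, the unfiltered interaction and within-gate fits, and the fits without cluster 6 or the 4 cells rich in Hes1. Depth limits Hes1 and Nrarp most, with 115 and 177 UMIs over 20 sums.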
